A study of Oryza sativa Japonica Group with 36 samples.

Results

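The genes at the start of rice chromosome 4 were followed in shoots of the C418 and K354 lines. C418 is a japonica restorer line and the recurrent parent. K354 is 1 introgression line (BC2F6) in the C418 background, with Bg300, an indica variety from Sri Lanka, as donor. Seedlings of both lines were grown to the 3-leaf stage at 25 °C under a 12 h photoperiod, and whole shoots were taken after 2, 6, 12, 24 or 48 h at 4 °C, or from controls kept at 25 °C and pooled from 2 h and 24 h. Each of the 12 groups (line by condition) had 3 arrays, 1 for each of 3 pots, 36 in all. Time of day was therefore not matched between the control pool and each cold group.

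The stretch holds every gene that RefSeq (assembly ASM3414082v1) places on chromosome 4 with a start below 6000000 and that the probe table pairs with a probe set of its own. This gave 124 genes with 165 probe sets, out of 17736 genes placed on the rice chromosomes. Where a gene had more than 1 probe set, the one with the highest mean log2 intensity stood for it. The stretch was selected on the difference between the lines measured on these same arrays, so that difference is described below with no p-value. Where a gene is called between the lines, it passed the same limits as all genes in the fit, which is no test of the stretch. Changes in the cold within a line were not a criterion of the choice and were tested. They use the same arrays as the line difference, so for genes named for that difference they are not independent of it. The array names no genome build, so genes are given by their order, from 1 at the start of the chromosome to 124 at the limit. Genes for which the study gives a locus name are called by it and the others by their RefSeq symbol.

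An introgression line carries stretches of a donor's chromosomes in the background of a recurrent parent, and genes within such a stretch come as donor alleles. Genomes of japonica and indica rice differ in the sequence, number and presence of many genes. The start of chromosome 4 is known for a cluster of genes that make momilactones, diterpenoids that rice uses against fungi and against neighbouring plants. The study's list of genes in introgressed segments names none from this stretch, whereas its marker map draws a segment in the upper part of the same chromosome. The array was designed largely from japonica sequence, and for every line difference below, a sequence difference under the probes and a difference in transcript level cannot be told apart. In whole shoots, a lower intensity from fewer cells of a type and one from less RNA per cell cannot be told apart either.

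Values are intensities of probe sets, not on a log scale. The median of an array was 55.5 to 67.9 and its 25th percentile 26.0 to 30.0. Arrays of 1 group correlated at 0.979 to 0.996. The 5 photosystem and light-harvesting genes found by symbol lay above the array median on every array, with medians over arrays of 5030 to 14190. A gene was called where its limma p adjusted by the Benjamini-Hochberg method over all 57258 probe sets tested was below 0.05 and its fold change was over 5. Fold changes are ratios of geometric means, taken from differences of mean log2 intensities. Where all 3 arrays of the lower group lay below the 25th percentile of their array, that percentile took its place and the fold is written as "at least".

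In the control, 9 of the 124 genes were called between the lines, against 0.88% of all genes. Of these, 8 were higher in K354 (0.569% of all genes were) and LOC4335019 was lower (0.31%). The count of called genes was 8 at 2 h (1.04% of all genes), 10 at 6 h (0.908%), 10 at 12 h (0.964%), 9 at 24 h (0.913%) and 9 at 48 h (1.02%). In all, 12 genes were called in 1 or more conditions and 5 of them in all 6, and no share over all genes was taken for these totals. Since the stretch was picked for this difference, nothing is read from the totals, or from the counts per condition against their backgrounds. On the rest of chromosome 4, 2 of 1433 genes were called in the control. Most genes of the stretch were alike in the lines, with 108 of 124 within 2-fold in the control (87.1%, against 96.5% of all genes). In all 6 conditions 90 were within 2-fold, and no share over all genes was taken for that count.

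The 12 called genes lay apart along the stretch, at positions 10, 11, 30, 44, 60, 61, 64, 76, 85, 96, 106 and 107. Between LOC_Os04g01330 at position 11 and LOC_Os04g02580 at position 44, only LOC4334921 at position 30 was called. None of the 17 genes after position 107 was called, and none of the 25 genes that follow the limit. With 0.88% to 1.04% of all genes called per condition, nothing is read from these counts. The 3 last genes inside the limit, LOC4335111, LOC4335112 and OsPT4, a phosphate transporter, differed by -0.03, 0.17 and 0.28 (log2, K354 minus C418, control). The 3 first genes outside, LOC4335125, LOC4335126 and LOC4335129, differed by 0.09, 0.08 and -0.18.

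**Figure D1:**
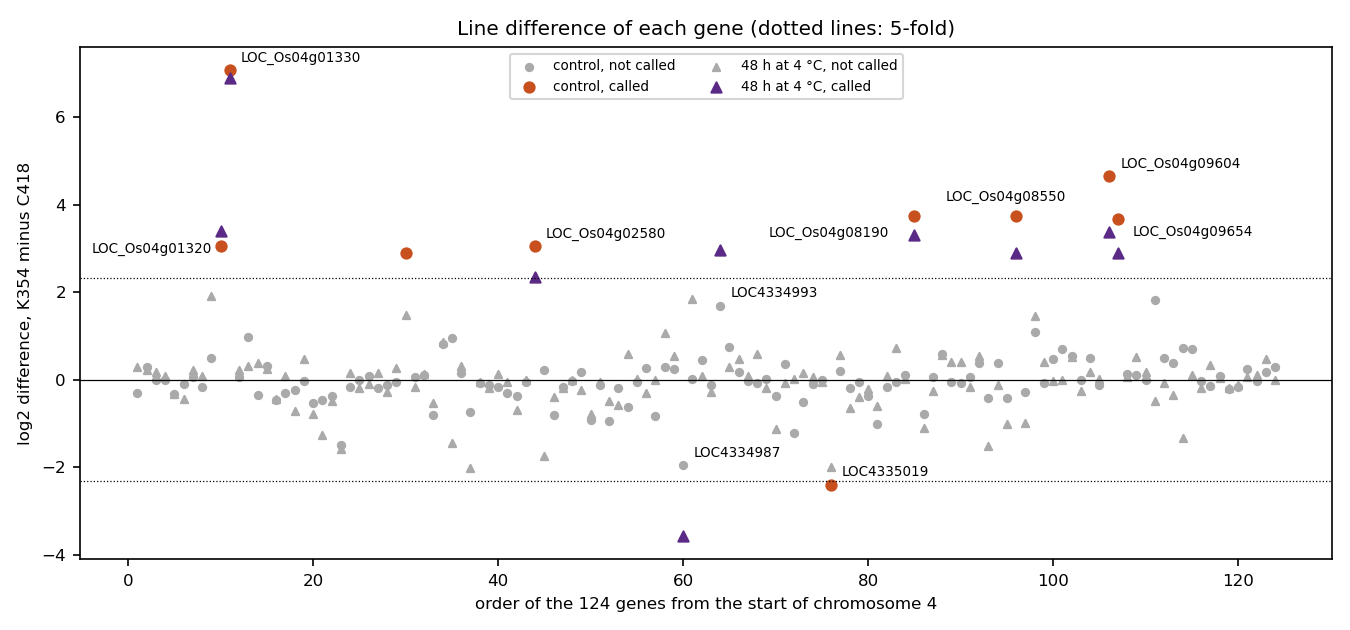
Difference between the lines (log2 intensity, K354 minus C418, means of 3 arrays) for each of the 124 genes in their order along the chromosome, in the control (circles) and after 48 h at 4 °C (triangles); coloured symbols are called and dotted lines mark 5-fold. The called genes are scattered among genes near 0, and LOC_Os04g01330 stands highest at 7.07 in the control.

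LOC_Os04g01330 (RefSeq LOC4334900), for which the study gives no product, differed most. Its intensity in the C418 control arrays was 27.4, 31.0 and 30.1, near the 25th percentile of the arrays, and in the K354 control arrays 3913, 4142 and 3843. Over all conditions the 18 C418 arrays ran from 24.1 to 51.6 with a median of 31.5, and the 18 K354 arrays from 2949 to 4142 with a median of 3499. The lines did not overlap, and K354 was 135-fold higher in the control and 86.9-fold to 125-fold higher in the cold groups. Cold moved this gene little in either line. The C418 change with an adjusted p below 0.05 was 0.43 ± 0.12 (log2 ± SE, n = 3, limma adjusted p = 0.0061) at 24 h, and the K354 one was -0.34 ± 0.12 (limma adjusted p = 0.035) at 12 h.

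Its neighbour LOC_Os04g01320 (RefSeq LOC4334899) is annotated by the study as a receptor-like serine/threonine kinase, a family of membrane proteins that pass signals into the cell. The C418 control arrays read 84.7, 74.1 and 83.3, and the K354 ones 604, 720.3 and 674. K354 was higher on all 18 arrays (398.6 to 881, median 667) than C418 on any (44.8 to 151, median 89.6). The difference was 8.25-fold in the control, narrowed to 3.29-fold at 2 h, where the gene was not called, and was 10.5-fold at 48 h. At 2 h the gene rose in C418 by 0.71 ± 0.16 (log2 ± SE, limma adjusted p = 0.0016) and fell by 0.62 ± 0.16 (limma adjusted p = 0.0058) in K354, and the changes differed by -1.33 ± 0.23 (limma adjusted p of the interaction = 0.0009). Quantile normalization raised the 2 h changes of all probe sets by a median of 0.11 in each line and median centring by 0.15, and quantile normalization moved the interaction at 2 h by -0.01.

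LOC_Os04g02580 (RefSeq LOC4334948), with no product given, was at 33.8, 35.0 and 34.1 in the C418 control and at 295, 333 and 236 in the K354 control, a difference of 8.31-fold. The 18 K354 arrays (114 to 333) lay above the 18 C418 arrays (24.3 to 38.6). In K354 the gene fell in the cold, by 0.97 ± 0.16 (log2 ± SE) at 2 h (limma adjusted p = 6.8e-05) and by 0.73 ± 0.16 (limma adjusted p = 0.00045) at 48 h. In C418 its change was -0.02 ± 0.16 at 48 h (limma adjusted p = 0.92), and the difference of the 2 changes did not pass (-0.71 ± 0.23, limma adjusted p = 0.059).

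LOC_Os04g08190 (RefSeq LOC9270447), also without a product, lay below the 25th percentile on all C418 arrays of every condition (9.65 to 27.5). The C418 control arrays read 14.0, 15.4 and 14.2 and the K354 ones 191.3, 191.2 and 201. K354 was at least 6.97-fold higher in the control and between at least 6.59-fold at 24 h and at least 9.65-fold at 2 h. All 18 K354 arrays lay between 158 and 260.1.

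LOC_Os04g08550 (RefSeq LOC4335054) is annotated by the study as a member of the aldo/keto reductases, enzymes that reduce aldehydes and ketones. Its control intensities were 58.0, 64.0 and 68.1 in C418 and 924, 753 and 877 in K354, a difference of 13.4-fold that was 7.46-fold at 48 h. In K354 it fell by 0.95 ± 0.16 (log2 ± SE) after 48 h (limma adjusted p = 1.3e-05). The C418 change was -0.10 ± 0.16 (limma adjusted p = 0.62), and the changes differed by -0.85 ± 0.23 (limma adjusted p of the interaction = 0.019). A sequence difference under the probes was not tested, so this flat C418 reading cannot show that the transcript stayed unchanged.

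LOC_Os04g09604 and LOC_Os04g09654 (RefSeq LOC4335077 and LOC4335079), next to each other at positions 106 and 107, are annotated as O-methyltransferases, enzymes that put methyl groups on phenolic and other small molecules. For LOC_Os04g09604 the C418 control arrays read 73.3, 72.2 and 69.7 and the K354 ones 1742, 1865 and 1795, 25.1-fold apart. After 48 h, C418 read 69.5, 66.0 and 69.7 and K354 802, 732 and 619, 10.4-fold apart. The K354 reading changed by -1.33 ± 0.12 (log2 ± SE, limma adjusted p = 1.9e-10). The C418 reading, near the median of the arrays, changed by -0.07 ± 0.12 (limma adjusted p = 0.66). Since a sequence difference under the probes was not tested, a flat C418 reading cannot show that the transcript stayed unchanged. The changes differed at 24 h (-1.03 ± 0.17, limma adjusted p = 0.00063) and at 48 h (-1.27 ± 0.17, limma adjusted p = 1.3e-05). For LOC_Os04g09654 the control arrays read 26.2, 29.8 and 23.9 in C418 and 315, 336 and 370 in K354, 12.8-fold apart, and at 48 h the difference was at least 6.44-fold. Its 48 h change in K354 was -0.92 ± 0.19 (limma adjusted p = 0.00023), and the difference from C418 did not pass (-0.79 ± 0.28, limma adjusted p = 0.08).

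**Figure D2:**
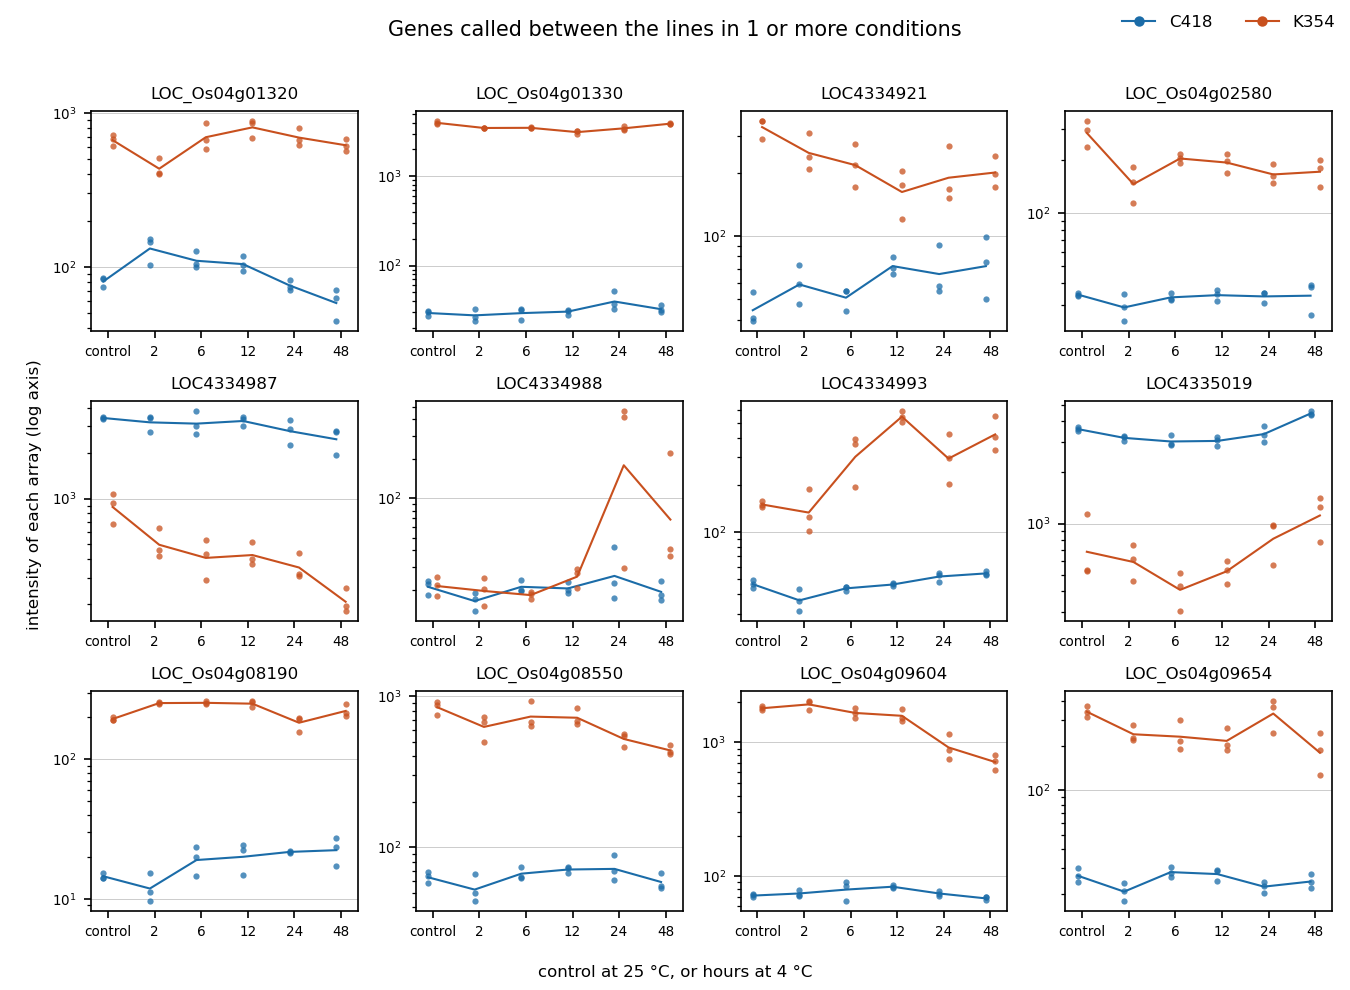
Intensity (log axis) of each array of the 12 genes called between the lines in 1 or more conditions, by condition, with C418 in blue and K354 in orange; points are arrays and lines join the means of logs. For 9 genes every K354 array lies above every C418 array, for LOC4334987 and LOC4335019 every one lies below, and for LOC4334988 the lines overlap.

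Of the 124 genes, 10 had all 18 K354 arrays above all 18 C418 arrays (1.24% of all genes did) and 4 had all of them below (0.947%). Among the called genes this held for 9 and 2. The called genes without a locus name in the study had 3 other courses. LOC4334921 was 7.43-fold higher in K354 in the control (54.0, 39.6 and 41.0 in C418, 290.1, 352 and 352 in K354) and was called only there. It rose in C418 by 0.70 ± 0.25 (limma adjusted p = 0.02) and fell in K354 by 0.72 ± 0.25 (limma adjusted p = 0.018) by 48 h on the log2 scale, so that the lines were 2.79-fold apart, and the changes differed by -1.41 ± 0.35 (limma adjusted p = 0.011).

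LOC4334993 went the other way. It was 3.23-fold higher in K354 in the control (49.1, 46.3 and 43.9 in C418, 145, 157 and 148 in K354) and 11.8-fold higher at 12 h. In C418 it stayed between 31.3 and 56.0 on all 18 arrays. In K354 it rose by 1.87 ± 0.23 (log2 ± SE) at 12 h (limma adjusted p = 1.4e-07), and its changes differed between the lines at 12 h (1.87 ± 0.32, limma adjusted p = 0.00099) and at 48 h (1.26 ± 0.32, limma adjusted p = 0.013). Here too, the flat C418 reading cannot show that the transcript stayed unchanged, since a sequence difference under the probes was not tested.

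LOC4335019 was lower in K354, and so was LOC4334987 by its brightest probe set. LOC4335019 read 3506, 3596 and 3700 in the C418 control and 528, 529.5 and 1135 in the K354 control, 5.28-fold apart, with 1 K354 array well above the other two. It was called in the control and at 2, 6 and 12 h. In the control it lay near the threshold: it was 4.64-fold and 4.65-fold lower without K354 control replicate 1 or 2, and 4.93-fold lower as a ratio of arithmetic means, and was then not called. LOC4334987 read 3370, 3440 and 3430 in the C418 control and 682, 1066 and 940.3 in the K354 control, 3.88-fold apart and not called. In K354 it fell by 2.08 ± 0.21 (log2 ± SE) at 48 h (limma adjusted p = 1.9e-09), to 256, 181 and 194, which left the lines 11.9-fold apart. The C418 change was -0.47 ± 0.21 (limma adjusted p = 0.066), and the changes differed (-1.61 ± 0.30, limma adjusted p = 0.00077).

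A gene can have several probe sets, which read different parts or forms of its transcript, and for 26 of the 124 genes this was so. For 3 of these genes a probe set was called between the lines in some condition, and in the control no gene with several probe sets was called on all of them. All 9 genes called in the control have 1 probe set, so no other probe set can be set beside them.

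LOC_Os04g09350 (RefSeq LOC4335067), with no product given, had 4 probe sets, of which the brightest differed 1.46-fold in the control (77.4, 87.0 and 82.5 in C418, 121, 126 and 112 in K354) and was not called in any condition. The other 3 were higher in K354. The next brightest, to which the study gives this locus name, was at background level in C418. It read 13.8, 12.1 and 14.5 in the C418 control, below the 25th percentile, and 628, 581 and 524 in the K354 control, at least 20.6-fold higher, and was called in all 6 conditions. The next was at least 10.7-fold higher (4.84, 7.69 and 4.90 against 323, 348 and 238) and also called in all 6. The dimmest was at least 2.19-fold higher in the control (4.74, 3.00 and 2.44 against 75.9, 75.7 and 39.8) and called in 5, while at 48 h K354 read 20.1, 17.4 and 14.9, below the 25th percentile as well. By the brightest probe set, therefore, this gene does not count among the called ones.

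The probe sets of LOC4334987 also differed from each other. Its brightest gave the lower K354 level above. The next, whose suffix marks probes that may also bind other transcripts, read 557, 581 and 595 in the C418 control and 466, 772 and 646 in the K354 control, with overlap, and was not called between the lines in any condition. It fell in K354 at 48 h too (-1.81 on the log2 scale, limma adjusted p = 7.6e-07), to 222, 165 and 147. The dimmest lay below the 25th percentile in both lines in the control (5.41, 6.14 and 6.02 in C418, 10.3, 20.8 and 12.95 in K354), as it did at 12 h and 24 h, so nothing is read from it. LOC_Os04g07260, with no product given, had a dimmer probe set called lower in K354 at 2 h only, while its brightest was called in no condition.

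**Figure D3:**
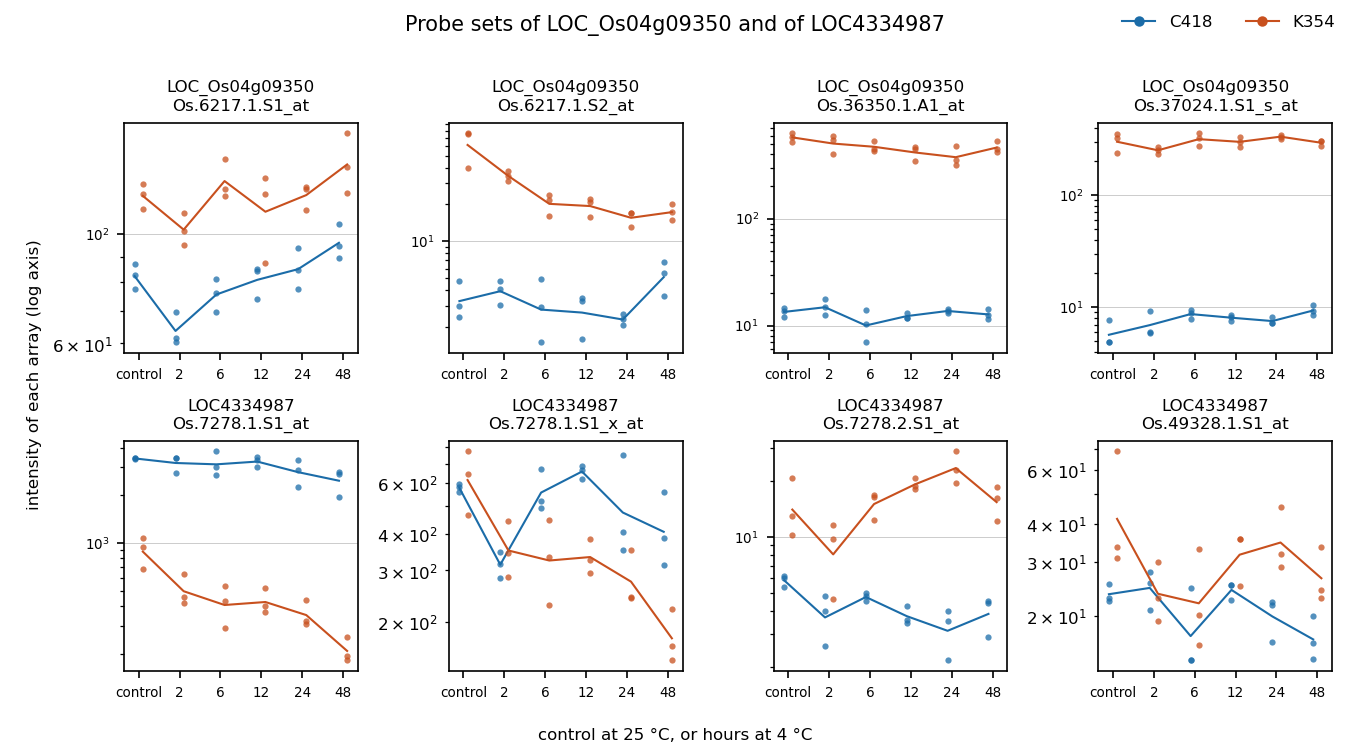
Intensity (log axis) of each array for the 4 probe sets of LOC_Os04g09350 (top) and the 4 of LOC4334987 (bottom), by condition, with C418 in blue and K354 in orange; points are arrays and lines join the means of logs. The 3 dimmer probe sets of LOC_Os04g09350 separate the lines widely, while its brightest differs 1.46-fold in the control.

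Few genes of the stretch passed the 5-fold threshold in the cold. In C418, limma called 0 of 124 at 2 h (0.761% of all genes) and 0 at 6 h (0.93%), 1 at 12 h (1.49%), 2 at 24 h (3.54%) and 3 at 48 h (6.39%). In K354 it called 0 at 2 h (0.288%), 1 at 6 h (0.739%), 1 at 12 h (1.34%), 5 at 24 h (4.12%) and 3 at 48 h (4.63%). For the counts of 0, the count at an unadjusted p below 0.05 with the same fold was also 0 with limma and with an equal-variance test of the log2 values, and without the fold limma gave 49 and 38 in C418 and 45 in K354. All cold comparisons of a line use the same 3 control arrays. Without a minimum fold, 20 genes rose (29.9% of all genes did) and 54 fell (41.3%) in C418 at 48 h, and 25 rose (29.4%) and 57 fell (37.9%) in K354. On the log2 scale, the median gene changed after 48 h by -0.20 (C418) and -0.21 (K354), against -0.11 and -0.07 over all genes.

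LOC4334994, for which the tables used here give no product, rose most in both lines. Its control arrays read 59.7, 65.7 and 62.3 in C418 and 95.8, 112 and 106 in K354, and its 48 h arrays 2868, 3253 and 3067 in C418 and 3444, 4220 and 3557 in K354. The means climbed at each time, from 82.1 ± 26.2 (SD, n = 3) at 2 h through 351 ± 182 at 6 h, 1070 ± 307 at 12 h and 2159 ± 105 at 24 h in C418. At 48 h the rise was 5.61 ± 0.28 (log2 ± SE, limma adjusted p = 2.8e-16), or 48.9-fold, in C418 and 5.16 ± 0.28 (limma adjusted p = 2.6e-15), or 35.7-fold, in K354. The difference of the rises was -0.46 ± 0.39 (limma adjusted p = 0.56).

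LOC4335053, also without a product, rose later. It read 44.0, 44.8 and 48.3 in the C418 control and 30.0, 32.0 and 40.7 in the K354 control, and 809, 977 and 844 against 241, 566 and 596 at 48 h. It was called at 24 h and 48 h in both lines, with rises at 48 h of 4.26 ± 0.35 (limma adjusted p = 1.8e-11) in C418 and 3.67 ± 0.35 (limma adjusted p = 4.9e-10) in K354 on the log2 scale. The rises differed by -0.58 ± 0.49, with a limma adjusted p of 0.56.

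LOC_Os04g01990 (RefSeq LOC4334929) is annotated as a pentatricopeptide protein, a family that binds and processes RNA of chloroplasts and mitochondria. It read 48.1, 35.0 and 50.8 in the C418 control and 87.7, 85.0 and 82.7 in the K354 control, and 639, 461 and 465 against 218, 193 and 164 at 48 h. The order of the lines turned between control and 48 h, with no overlap of the arrays at either. C418 rose 11.7-fold (3.55 ± 0.12 on the log2 scale, limma adjusted p = 1.6e-19), and K354 rose by 1.16 ± 0.12 (limma adjusted p = 3.4e-09). The limma interaction was called from 6 h on, with a difference of -0.95 ± 0.17 (adjusted p = 0.0053) at 6 h that grew to -2.39 ± 0.17 (adjusted p = 1.5e-10) at 48 h.

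At 24 h, LOC_Os04g01500 (RefSeq LOC4334906, no product given) and LOC4334988 were called in K354 and not in C418. LOC_Os04g01500 read 48.8, 51.8 and 84.6 in the K354 control and 988, 289 and 1181 at 24 h, a rise of 3.54 ± 0.43 (log2 ± SE, limma adjusted p = 7.4e-08). Replicate 2 was the low array, and without it the rise was 4.18. In C418 it read 327, 513 and 271 at 24 h, a rise of 2.12 ± 0.43 (limma adjusted p = 0.00016), and the difference of the rises did not pass (1.43 ± 0.60, limma adjusted p = 0.37). LOC4334988 lay below the 25th percentile in the K354 control and read 462, 29.3 and 421 at 24 h, so that replicate 2 was again the low array. Its rise was 3.07 ± 0.63 (limma adjusted p = 0.00021), at least 6.29-fold, and it was 4.37 without replicate 2 and 2.38 without replicate 1, called in both. The difference from C418 was 2.79 ± 0.89 (limma adjusted p = 0.14). Both genes were named after their values were seen.

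The momilactone genes lie at positions 111 to 115. The pathway starts from syn-copalyl diphosphate, made by OsCPS4, which OsKSL4 turns into syn-pimaradiene, the P450s CYP99A2 and CYP99A3 oxidise this, and OsMAS, a dehydrogenase, acts late. Of the 6 genes listed, 5 were measured (a second dehydrogenase was not matched) and none was called between the lines in any condition. In the cold, OsCPS4 alone was called, as falling, in K354 at 24 h (0.451% of all genes fell that far) and at 48 h (1.03%). At 48 h their median change (log2) was 0.03 for C418 and -1.28 for K354. Of these genes, 2 were at background level in K354 at 48 h, and with their changes set at the bound the K354 median was -0.69. None of the 5 was called in the interaction at 48 h.

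OsCPS4 read 23.6, 19.7 and 137 in the C418 control and 104, 70.0 and 383 in the K354 control, so 1 array stood far above the others in each line, replicate 3 in both. At 48 h it read 42.4, 14.4 and 19.7 in C418 and 21.9, 16.0 and 12.4 in K354, all below the 25th percentile in K354. The fall in K354 was 3.10 ± 0.64 on the log2 scale at 48 h (limma adjusted p = 0.00017), at least 4.99-fold, and the C418 change was -0.80 ± 0.64 (limma adjusted p = 0.31). The difference did not pass (-2.30 ± 0.91, limma adjusted p = 0.13). Without K354 control replicate 3 the 48 h change was still called, at -2.38, and the 24 h change was not, at -1.76 (-2.48 with all arrays, limma adjusted p = 0.0023). With all values floored at the 25th percentile the 48 h change was -2.32 and not called.

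The same control arrays were highest for OsKSL4 (8.75, 8.17 and 64.2 in C418, 18.3, 13.6 and 83.0 in K354), for OsMAS (51.8, 47.1 and 83.4, and 62.2, 56.7 and 125) and for CYP99A2 (97.1, 94.8 and 133, and 151.1, 141 and 249.97). For CYP99A3 replicate 3 was highest in K354 (166, 149.7 and 218) and not in C418 (112, 139 and 124). At 48 h, 1 C418 array of OsKSL4 was high as well (75.1, 13.4 and 11.4). Without K354 control replicate 3, the K354 changes at 48 h (log2) were -0.33 for OsMAS (-0.69 with it), -0.13 for CYP99A2 (-0.39) and -1.12 for CYP99A3 (-1.28). CYP99A3 fell in both lines at 48 h, by 0.71 ± 0.15 (log2 ± SE, limma adjusted p = 2e-04) in C418 and by 1.28 ± 0.15 (limma adjusted p = 3.1e-08) in K354. OsMAS changed by -0.69 ± 0.23 (limma adjusted p = 0.013) in K354 and by 0.03 in C418 (limma adjusted p = 0.94), and the difference did not pass (limma adjusted p = 0.2). OsKSL4 was near background in K354 at 48 h (8.77, 8.60 and 9.55), as in its control replicates 1 and 2, and its fitted change there, -1.61, was -0.82 without control replicate 3 and -0.53 with the floor, so no change is read from it. CYP99A2 did not pass at 48 h in either line.

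Other genes of labdane diterpenoids lie outside the stretch and feed gibberellin, phytocassane and oryzalexin synthesis, among others. The list was not divided by product, so a listed gene may act in momilactone synthesis too. Of 14 listed, 11 were measured, and 1 was called as falling at 48 h in C418 (1.83% of all genes were) and 7 in K354 (1.03%), with medians of -0.23 and -2.46 (log2). With the 2 genes at background level in K354 set at their bounds, its median was -2.34. The 7 in K354 were OsCPS2, OsKSL7, OsKSL10, CYP76M7, CYP71Z6, CYP71Z7 and CYP701A8. The gene matched as CYP76M7 is placed on chromosome 6, not on the chromosome of the listed locus, so it may be another gene. The counts and medians of this list include it. OsCPS2, which makes ent-copalyl diphosphate for phytoalexins, fell in both lines, 6.56-fold in C418 (limma adjusted p = 0.00012) and at least 6.35-fold in K354 (limma adjusted p = 1.1e-06). OsKSL7 fell at least 3.77-fold in K354, where it was called lower than in C418 in all 6 conditions. In the control it differed by -3.23 (log2, 0.31% of all genes were called lower). The study places its locus, annotated as a terpene synthase, in an introgressed region of chromosome 2. Whether other listed genes lie in that region was not checked. CYP71Z7 was called higher in K354 in the control (2.51, where 0.569% of all genes were). Both thus started their falls from levels that differed between the lines. No check without K354 control replicate 3 was made for this list. The interaction at 48 h was called with a higher K354 change for OsCPS1 and OsKS1 (8.4% of all genes were) and a lower one for CYP71Z6 and CYP71Z7 (3.69%), and not for the other 7.

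**Figure D4:**
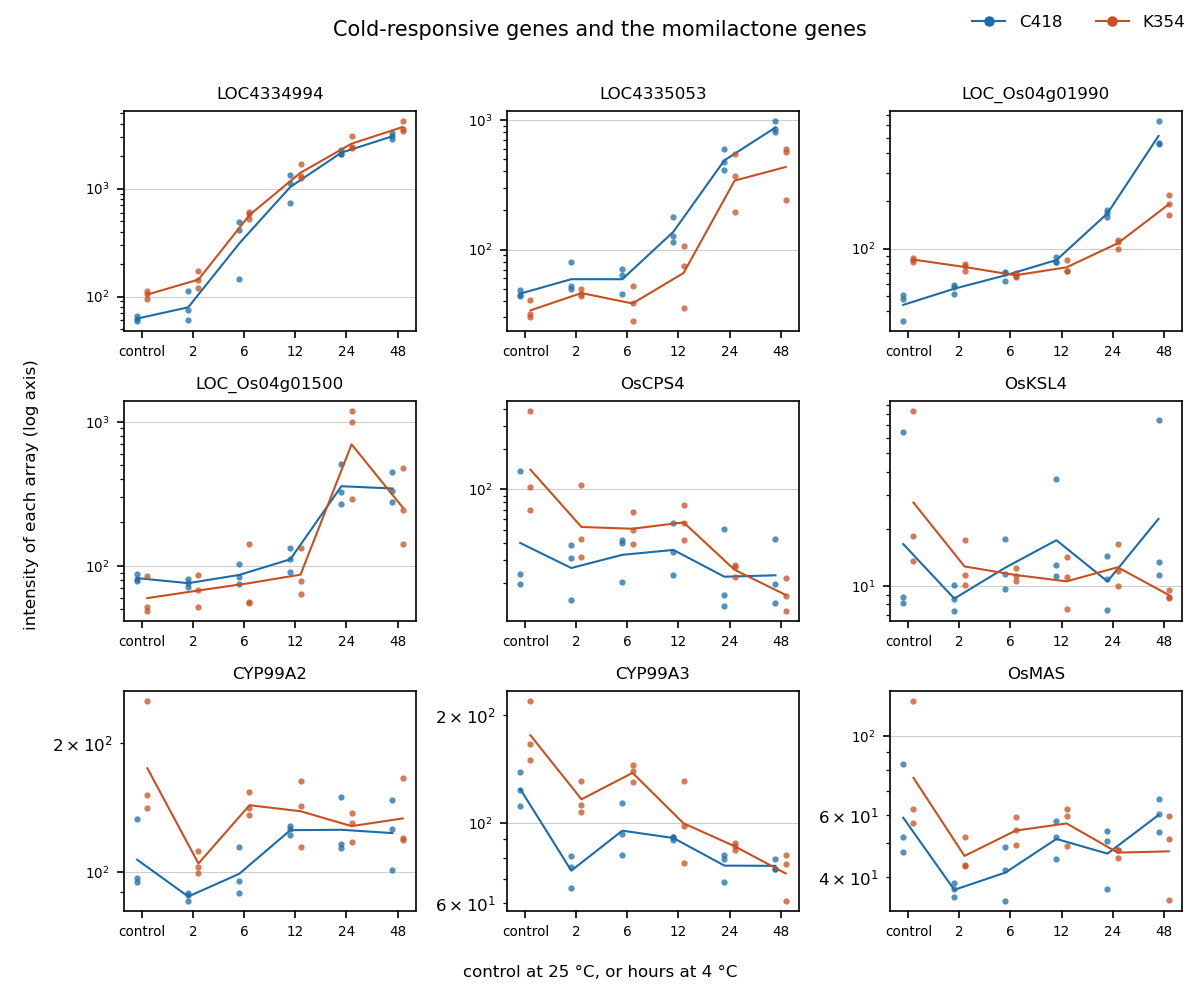
Intensity (log axis) of each array for 4 cold-responsive genes and the 5 momilactone genes, by condition, with C418 in blue and K354 in orange; points are arrays and lines join the means of logs. LOC4334994 rises in both lines, LOC_Os04g01990 rises further in C418, and the control arrays of OsCPS4 and OsKSL4 spread widely.

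OsETR2 at position 97 encodes a receptor of ethylene, a gaseous hormone, and such receptors hold the ethylene response off while the hormone is absent. By its brightest probe set it read 531, 515 and 522 in the C418 control and 393, 449 and 449 in the K354 control. At 2 h it rose in both lines, by 0.79 ± 0.11 in C418 (log2 ± SE, limma adjusted p = 3.2e-06) and 0.45 ± 0.11 in K354 (limma adjusted p = 0.0031). The difference of these rises did not pass (-0.34 ± 0.16, limma adjusted p = 0.49). At 48 h it rose in C418 by 0.27 ± 0.11 (log2 ± SE, limma adjusted p = 0.04) and fell in K354 by 0.44 ± 0.11 (limma adjusted p = 0.0015), and the changes differed by -0.71 ± 0.16 (limma adjusted p = 0.004). Its other probe set was dim in the control of both lines (means of 10.5 and 5.50) and rose in both, to 108 ± 23.6 (SD, n = 3) in C418 and 44.1 ± 11.5 in K354 at 48 h, which is at least 3.82-fold and at least 1.51-fold. The 2 probe sets of this gene thus moved apart in K354. Of the 5 ethylene receptors listed, 5 were measured and OsETR2 alone was called in the interaction at 48 h, where 12.1% of all genes were, while OsERS1 rose in both lines (1.07 ± 0.09 and 1.22 ± 0.09 on the log2 scale, limma adjusted p = 9.8e-12 and 8.7e-13).

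The difference of the cold changes between the lines (interaction, K354 change minus C418 change) was called at an adjusted p below 0.05 with no minimum fold. It uses the arrays of the line comparison again and is not independent of how the stretch was chosen. limma called 3 of 124 genes at 2 h (2.67% of all genes), 2 at 6 h (0.468%), 9 at 12 h (2.55%), 10 at 24 h (2.01%) and 23 at 48 h (12.1%). In all, 27 genes were called at 1 or more times, 12 of them at several, and no share over all genes was taken for these counts. Of the 23 at 48 h, 9 had a higher change in K354 than in C418 and 14 a lower one. Over all genes the shares were 8.4% and 3.69%. In 10 of them both lines changed in the same direction, in 5 in opposite directions, in 6 K354 alone passed and in 2 C418 alone. Of the 23, 3 were among the genes called between the lines in the control.

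LOC4334935 at position 37 fell further in K354. It read 374, 376 and 372 in the C418 control and 222, 237 and 217 in the K354 control, and 277, 212 and 270.2 against 74.1, 62.9 and 52.1 at 48 h. The change was -0.57 ± 0.11 (log2 ± SE, limma adjusted p = 6.2e-05) in C418 and -1.85 ± 0.11 (limma adjusted p = 2.9e-14) in K354, and they differed by -1.28 ± 0.16 (limma adjusted p = 2.8e-06). The second probe set of this gene fell too, from means of 269 and 208 to 149 and 69.9, and the third was dim throughout.

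LOC4334949 moved in opposite directions. It read 120, 155 and 141 in the C418 control and 399, 250.2 and 373 at 48 h, whereas K354 went from 141, 159 and 186 to 70.4, 96.8 and 144. The difference was -1.97 ± 0.40 (log2 ± SE, limma adjusted p = 0.002). LOC4334898, next to the kinase gene LOC_Os04g01320 at position 9, was called at 2 h with a lower change in K354 (-1.30 ± 0.27, limma adjusted p = 0.0071) and at 48 h with a higher one (1.42 ± 0.27, limma adjusted p = 0.0011). At 48 h it read 124, 50.3 and 85.9 in C418 and 324, 294 and 301 in K354.

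LOC4334999 fell further in C418 than in K354 at 24 h and 48 h, and LOC4335039 fell in C418 and rose in K354 at 6, 24 and 48 h. LOC4334999 read 299.6, 307 and 299 in the C418 control and 168, 148 and 170 at 48 h, and 293, 280 and 288 in the K354 control and 283, 259 and 198 at 48 h, and was called at 2, 12, 24 and 48 h. At 2 h it rose in K354 by 0.44 (log2, limma adjusted p = 0.00096) and its C418 change was -0.17 (limma adjusted p = 0.18). At 12 h it fell by 0.76 in C418 (limma adjusted p = 2.2e-07), and its K354 change was 0.09 (limma adjusted p = 0.5). LOC4335039 was called at 6, 12, 24 and 48 h, with a difference of 1.01 ± 0.16 at 24 h (log2 ± SE, limma adjusted p = 0.00037). At 12 h, LOC4334965 (-1.42 ± 0.25, limma adjusted p = 0.0016) and LOC4335075 (-1.16 ± 0.19, limma adjusted p = 0.00069) were also called.

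**Figure D5:**
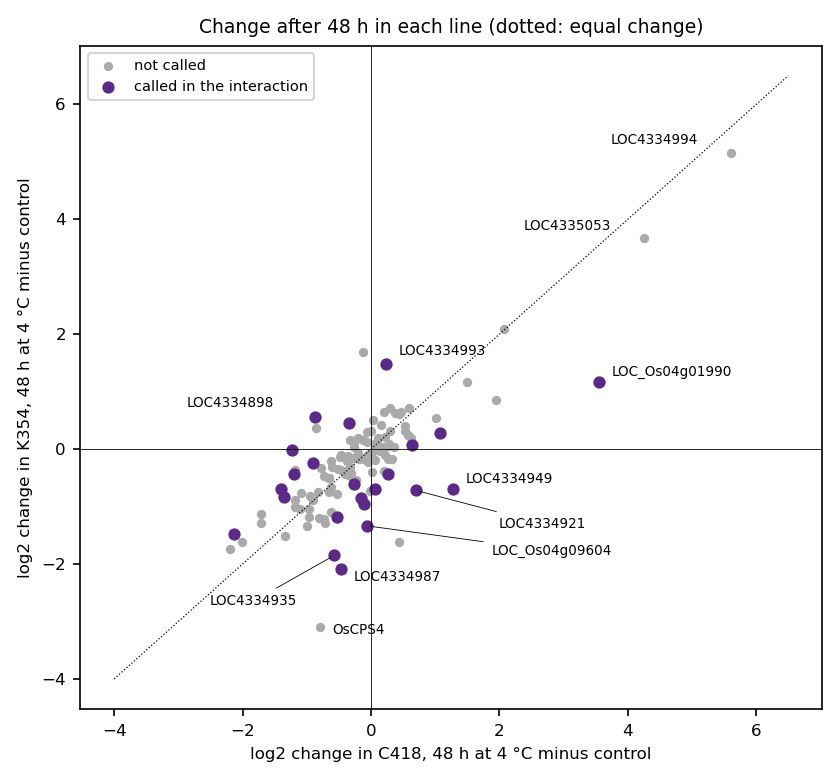
Change after 48 h at 4 °C in C418 (horizontal) and in K354 (vertical) for the 124 genes, as log2 of cold minus control from means of 3 arrays; the dotted line marks equal change and purple points are the 23 genes called in the interaction. LOC_Os04g01990 lies farthest below the line among the called genes, at 3.55 in C418 and 1.16 in K354.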

How the data were processed

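Shoots of 2 rice lines in 6 conditions were measured on Affymetrix rice genome arrays, 3 per group. The values the authors deposited are linear intensities, 1 per probe set and array. MAS5 is named in the submitters' processing notes, whereas the methods describe GCOS 1.4 followed by dChip with an invariant set of genes, and it is not known which of them gave the deposited scale. Of 57381 probe sets, 123 array controls were set apart and 57258 tested, unfiltered. The probe table gave 1 gene for 22436. Log2 intensities were fitted with limma 3.58.1 (R 4.3.3) as 1 model of the 12 groups with 24 residual degrees of freedom, and p-values were adjusted by Benjamini-Hochberg over all probe sets of a comparison. SAM, which the methods name, was not run, and an equal-variance t-test of each probe set's log2 values stood in for it as an alternative. No 2 arrays were identical. On simulated data for C418 at 48 h against the control, limma called 93 of 100 probe sets changed 6-fold, 99 of 100 changed 10-fold and 1 of 57058 unchanged. These calls also needed over 5-fold, and the noise was drawn independently for each probe set and array. The check therefore does not bear on the interaction calls, which have no minimum fold. Tables and figures used python 3.11.15, pandas 2.3.3, numpy 2.4.6 and matplotlib 3.10.9.

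The members and the lists (momilactone genes, other labdane diterpenoid genes, ethylene receptors) were chosen with earlier results of these data known. Named genes were the 7 loci that mark the stretch, the 12 largest line differences among genes called in all 6 conditions (5 were), the 5 largest called rises and falls per line at 48 h, up to 5 called in the interaction per time, the momilactone genes, and genes of which 1 of several probe sets was called between the lines. Others were named after their values were seen. Lists of gene kinds meant to rest on RefSeq descriptions were not applied, since the table used here holds symbols only. Products are those the study gives or known from the symbol. The authors' own fold changes and p-values were not used. No sequences are shown, as no sequence tables were used here.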

Additional observations from a re-analysis of the deposited data

Results flagged for a closer look

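The results below are differences between the lines in the response to the same cold treatment, tested with the interaction term of limma (K354 change minus C418 change, log2), and are the 5 largest called at each time, or all of them where fewer were called. They share arrays with the comparison that chose the stretch. At 2 h, these were LOC_Os04g01320 (-1.33), LOC4334898 (-1.30) and LOC4334999 (0.61). At 6 h, they were LOC_Os04g01990 (-0.95) and LOC4335039 (0.90). At 12 h, they were LOC4334993 (1.87), LOC4334921 (-1.72), LOC4334965 (-1.42), LOC4335075 (-1.16) and LOC_Os04g01990 (-1.10). At 24 h, they were LOC_Os04g01990 (-1.58), LOC4334921 (-1.37), LOC4334935 (-1.13), LOC_Os04g09604 (-1.03) and LOC4335039 (1.01). At 48 h, they were LOC_Os04g01990 (-2.39), LOC4334949 (-1.97), LOC4334987 (-1.61), LOC4334898 (1.42) and LOC4334921 (-1.41). The call of LOC4334921 at 24 h was lost with quantile normalization and without each of 8 arrays in turn. For LOC_Os04g09604 and LOC4334993 the C418 readings were flat. As stated above, that cannot show an unchanged C418 transcript, so a differing transcript response is not shown for them.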

How the results depend on the processing

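The precision is limited by 3 arrays per group, and 15 of the genes had a C418 control mean below the 25th percentile, where probe sets are near background. Counts of genes called between the lines stayed within 1.5 times of the main count under every alternative run. In C418 at 6 h, quantile normalization, median centring and the ratio of arithmetic means each called 1 gene in place of 0, and leaving out 1 array gave 0 to 1 there and 0 to 1 at 2 h. In K354 at 24 h, an equal-variance test of the log2 values with Benjamini-Hochberg adjustment called 3 in place of 5. Interaction counts moved most. With the unadjusted p of that test they were 21 at 2 h, 24 at 6 h, 42 at 12 h, 42 at 24 h and 43 at 48 h, in place of 3, 2, 9, 10 and 23. With its Benjamini-Hochberg adjustment they were 1 at 6 h, 5 at 24 h and 10 at 48 h. A floor at the 25th percentile gave 4 at 6 h, and fitting only the groups compared gave 15 at 48 h. Leaving out 1 array gave 6 to 20 at 24 h (20 without K354 replicate 2 of 24 h, 6 without K354 replicate 3 of 24 h or C418 control replicate 2) and 19 to 27 at 48 h. The causes were not tested. Replicate numbers were not used to pair the samples. Residuals correlated by 0.00287 on average between arrays that share a number, with a lowest value of -0.50, and by -0.00132 between the rest. These means cannot show that no arrays share an effect, since correlations of opposite sign cancel. With a replicate block, limma gave 22 interaction calls in place of 23 at 48 h and the other 20 counts as without it. Of 611 values of single named genes under alternatives (the line difference in the control, the cold changes at 48 h and the interactions), 601 kept their call, 9 that were not called changed sign (OsCPS4, OsMAS and OsKSL4 in C418 at 48 h), no called one did, and 10 lost the call: OsCPS4 in K354 at 48 h with the floor (-2.32) and LOC4334921 in the interaction at 24 h with quantile normalization (-1.38) and without each of 8 arrays in turn (-1.14 to -1.47). OsCPS4 in K354 at 24 h, outside these, lost its call without K354 control replicate 3 (-1.76). In the control between the lines, LOC4335019 lost its call as a ratio of arithmetic means and without K354 control replicate 1 or 2.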

Other observations

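Further members of the stretch with known products, named after their values were seen, changed by less than 5-fold. ARG1, an arginase, which splits arginine, read 749.7, 682 and 761 in the C418 control and 1689, 1402 and 1550 after 48 h, and 499.6, 499.9 and 599 in the K354 control and 629, 695 and 618 after 48 h. It rose by 1.08 ± 0.10 in C418 (log2 ± SE, limma adjusted p = 1.9e-10) and by 0.28 ± 0.10 in K354 (limma adjusted p = 0.018), and the rises differed by -0.80 ± 0.14 (limma adjusted p = 0.00044). OsADC2, an arginine decarboxylase of polyamine synthesis, did not pass at 48 h in either line, with changes of 0.28 ± 0.13 and 0.09 ± 0.13 (limma adjusted p = 0.083 and 0.61). OsGT43H, a glycosyltransferase of family 43, rose 2.83-fold in C418 and 2.25-fold in K354 at 48 h (limma adjusted p = 5.5e-11 and 1.1e-08). ETFB, a subunit of a mitochondrial electron transfer flavoprotein, fell in both (-0.90 ± 0.10 and -0.88 ± 0.10, limma adjusted p = 1.5e-08 and 3.3e-08). OsAGO4b, an argonaute of RNA-directed DNA methylation, fell by 0.63 ± 0.14 in C418 (limma adjusted p = 0.00048) and by 1.10 ± 0.14 in K354 (limma adjusted p = 2e-07), and the difference did not pass (-0.47 ± 0.20, limma adjusted p = 0.17).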
